A study of Mus musculus with 24 samples.

Results

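RNA sequencing was used to compare mouse embryonic fibroblasts that had received Akt1 together with 4 cardiac factors with fibroblasts that had received the 4 factors alone, at an early and a late time after viral transduction. The described quantity is the change of this Akt1-dependent difference with time: the difference between AGHMT and GHMT cells at day 7 minus the same difference at day 2, for every gene. It uses 12 of the 24 libraries of the series, 3 in each of 4 groups. Of the 47967 genes in the count table, 17576 had enough reads to be tested. The study addressed the mechanism of cardiac reprogramming, in which fibroblasts are pushed towards a heart muscle identity.

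AGHMT cells were transduced with retroviruses for Akt1, Gata4, Hand2, Mef2c and Tbx5, and GHMT cells with those for Gata4, Hand2, Mef2c and Tbx5, as the letters of these cocktails are generally read. All groups shared the same starting cells, fibroblasts of embryonic day 13.5 to 14.5 from C57BL/6 mice, 2 viral exposures of 24 hours, and the later change to an induction medium that contains insulin. RNA was taken at day 7 or at day 2. The other libraries came from cells given Gata4, Mef2c and Tbx5 (GMT) and from mock-treated fibroblasts, which the labels do not describe further. The form of Akt1 that the virus carried is not stated, and the counts hold viral and endogenous transcripts together. Whether replicates are separate cultures is not stated in the labels, so the spread behind each p-value may be technical, and no batch is named.

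Akt1 is a serine/threonine kinase that is recruited to the membrane by the lipid product of PI3 kinase, downstream of insulin and growth factor receptors. It is known for promoting cell growth, glucose use and survival, in part by keeping FoxO transcription factors out of the nucleus and by raising the activity of mTORC1. In the heart it is known for its part in the growth and survival of muscle cells.

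Library totals ran from 29345957 to 37495178 counts. AGHMT day 2 replicate 3 stood apart: its log2 levels deviated from the other 2 libraries of its group with an SD of 0.284 over 10997 genes, against 0.0810 to 0.161 in the other 23 libraries, and this deviation followed the exon length of the gene (Spearman's rho −0.68 across genes). GHMT day 2 replicate 3 and GHMT day 7 replicate 2 had correlations of −0.53 and −0.62 with length at SDs of 0.130 and 0.149. By markers, the mock cells carried the fibroblast gene Lox (mean of 5089.7 CPM at day 7), and AGHMT and GHMT cells carried cardiac Tnnt2 (10160.0 and 9559 CPM at day 7). The counts of day differences and of classes over all genes, and those of some gene lists, are also given without AGHMT day 2 replicate 3. Levels are in CPM, counts scaled to a common library size with TMM factors and not corrected for gene length, so they are compared between samples and not between genes. Differences are log2 values, AGHMT minus GHMT, ± SE, and a difference was called when edgeR's adjusted p was under 0.05.

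The delivered genes were read first. Akt1 itself (ENSMUSG00000001729, chromosome 12, 112653821-112674884 on GRCm38) had 459, 445 and 450.2 CPM in AGHMT cells at day 7, against 379.9, 383 and 382 CPM in GHMT cells. At day 2 it had 471, 449.7 and 485 CPM in AGHMT cells, against 385, 390.3 and 404 CPM in GHMT cells. All AGHMT libraries lay above all GHMT libraries at both days. Mock cells had 385 CPM at day 7 and 387 CPM at day 2, close to GHMT cells. The difference was log2 0.24 ± 0.04, edgeR, adjusted p = 2.68e-05 at day 7 and log2 0.25 ± 0.04, edgeR, adjusted p = 1.26e-05 at day 2, and the day difference was −0.01 ± 0.06 (edgeR, adjusted p = 0.914).

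The other 4 factors were not at equal levels in the compared groups. Gata4, a zinc finger factor of heart development, was lower in AGHMT cells at both days, by more at day 7 (log2 −0.85 ± 0.05, edgeR, adjusted p = 1.56e-13) than at day 2 (log2 −0.39 ± 0.05, edgeR, adjusted p = 2.02e-07). Tbx5, a T-box factor, stood at −0.67 at day 7 and −0.37 at day 2, and Mef2c, a MADS-box factor, at −0.30 and −0.12 (log2). All of these differences and their day differences were called (edgeR, day difference adjusted p = 1.01e-05, 0.00271 and 0.0495), but those of Mef2c were small. Its day 2 difference was lost without AGHMT day 2 replicate 3 and GHMT day 2 replicates 1 and 2 in turn, and its day difference without 10 of the 12 libraries in turn (edgeR, adjusted p up to 0.156 and 0.110). With a per-library correction for gene length, the day 2 difference of Mef2c was −0.03 and not called (edgeR, adjusted p = 0.664). Hand2, a basic helix-loop-helix factor, changed sides: it was higher in AGHMT cells at day 7 (1130.1, 1133 and 1113 CPM, against 979.9, 1019 and 935 CPM in GHMT cells) and lower at day 2 (983, 962 and 1099 CPM in AGHMT cells, against 1143, 1169 and 1188 CPM in GHMT cells), with no overlap at either day. The part of these factor levels in the differences described below was not tested. Akt2, a kinase related to Akt1, was called higher at day 2 and not at day 7 (day 7 −0.03, day 2 0.12), with a called day difference that was lost without 9 of the 12 libraries in turn (edgeR, adjusted p up to 0.113, without GHMT day 2 replicate 3).

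At day 7, 4401 genes were higher in AGHMT than in GHMT cells (25.0% of those tested) and 4152 were lower (23.6%). At day 2, 4521 genes were higher (25.7%) and 4738 were lower (27.0%). The day difference was called for 3923 genes, in 2333 of them towards a more positive AGHMT-minus-GHMT difference at day 7 (13.3%) and in 1590 towards a more negative one (9.05%). It was at least 2-fold for 517 and 216 of these. The median over all genes tested was −0.00 at day 7, −0.02 at day 2 and 0.02 for the day difference.

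Genes were sorted by the 3 tests, and of the 11548 genes called at either day 5888 had a lasting difference. Lasting differences, called at both days in the same direction, held 3017 genes that were higher in AGHMT cells (17.2% of those tested) and 2871 that were lower (16.3%). Early only differences, called at day 2 and not at day 7 with a called day difference, held 472 higher genes (2.69%) and 633 lower genes (3.60%). Late only differences, called at day 7 and not at day 2 with a called day difference, held 446 higher genes (2.54%) and 388 lower genes (2.21%). In 242 genes (1.38%) the difference reversed, being higher at day 7 and lower at day 2, and in 134 genes (0.762%) it was lower at day 7 and higher at day 2. A further 3345 genes were called at 1 day without a called day difference and were put in no class, and 44 had a called day difference alone. A gene that is not called at a day is not shown to be unchanged there.

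**Figure D1:**
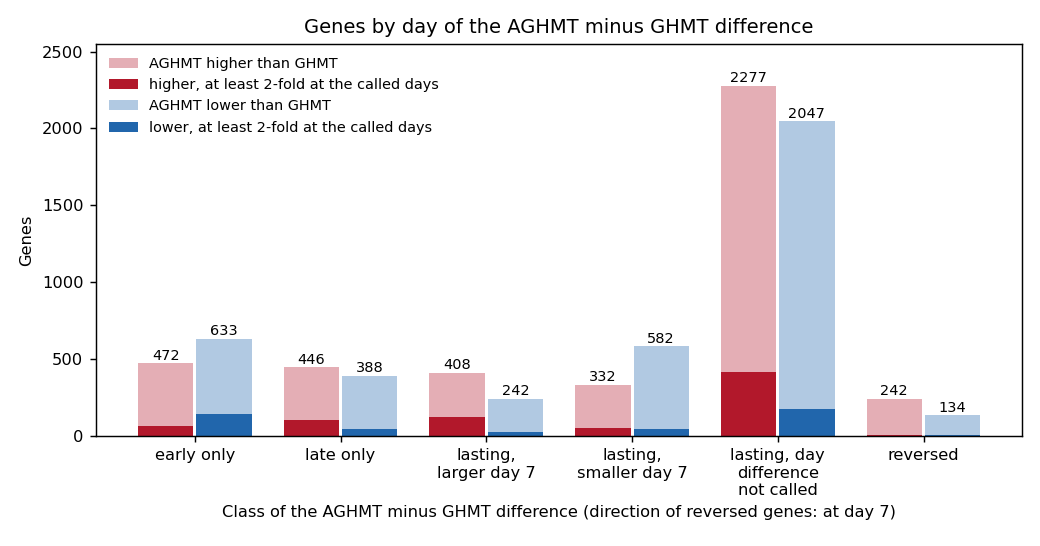
Number of genes in each class of the AGHMT minus GHMT difference (y axis), for genes higher (red) and lower (blue) in AGHMT cells. Dark parts are genes with at least a 2-fold difference at the called day, or at both days for lasting and reversed genes. Lasting genes without a called day difference are the tallest bars, with 2277 higher and 2047 lower genes.

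Within the lasting class, larger differences at day 7 were found for 408 higher and 242 lower genes, smaller ones for 332 higher and 582 lower genes. At least 2-fold differences were counted for 62 higher and 143 lower early genes, 101 higher and 47 lower late genes, 592 higher and 241 lower lasting genes, and 4 in each direction of the reversed class. Differences of at least 2-fold were therefore more often decreases in the early only class and more often increases in the late only class. Over all genes called at day 2, 932 were at least 2-fold higher and 954 at least 2-fold lower. At day 7 these were 1039 and 522. Exon length differed between the classes, with a median of 5300.5 bases for genes that reversed to higher, 5478 for late higher and 4937 for early lower genes, against 3940 for all genes tested. It was 3829 for early higher, 3882 for late lower, 4471 and 4483.5 for lasting higher and lower genes, and 4821.5 for genes that reversed to lower. With a per-library correction for length, the classes held 688 early lower, 459 late higher and 279 genes reversed to higher. Under this correction 82.4% of early, 80.2% of late, 97.2% of lasting and 92.3% of reversed genes kept their class.

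Without AGHMT day 2 replicate 3, the day difference was called for 2650 genes in the positive and 1771 in the negative direction. The classes then held 457 higher and 639 lower early genes, 493 and 429 late genes, 3183 and 3142 lasting genes, and 275 and 175 reversed genes. Of the 5888 lasting genes 94.3% stayed in their class, of the 376 reversed genes 86.4%, of the 1105 early genes 71.9% and of the 834 late genes 70.6%. The counts therefore moved little, while membership of the early and late classes moved more.

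**Figure D2:**
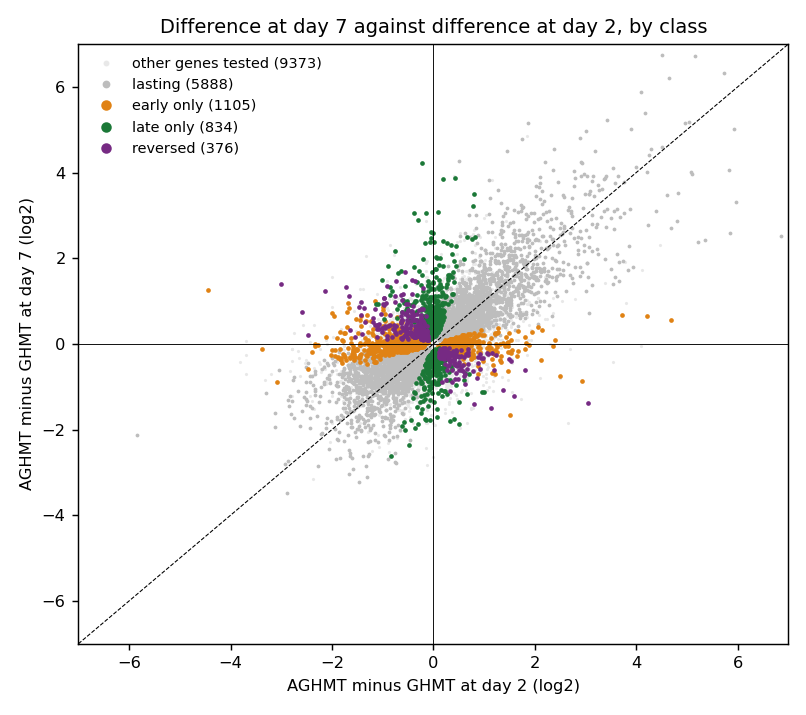
Difference between AGHMT and GHMT cells at day 7 (y axis) against day 2 (x axis), both log2, for the 17576 genes tested, colored by class. Lasting genes lie along the dashed line of equal differences, early genes along the horizontal axis, late genes along the vertical axis and reversed genes at the upper left and lower right. 1 gene lies outside the axes.

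The 5 largest genes of each class and direction were named only where AGHMT and GHMT libraries did not overlap at each called day. For them, a lack of overlap at such a day is no separate evidence. Early increases included Csrp3, which encodes muscle LIM protein of the Z-disc. Csrp3 (ENSMUSG00000030470, chromosome 7, 48830398-48848033) had 14.8, 15.2 and 15.6 CPM in AGHMT cells and 17.96, 19.2 and 15.5 CPM in GHMT cells at day 7, and 14.00, 12.7 and 17.99 CPM in AGHMT cells and 4.56, 5.598 and 5.46 CPM in GHMT cells at day 2. The groups did not overlap at day 2 and overlapped at day 7, when GHMT cells had the higher mean (day difference log2 −1.73 ± 0.16, edgeR, adjusted p = 1.79e-08). Gpbar1, the membrane receptor for bile acids, stood at 6.17 ± 0.165 CPM in AGHMT and 5.55 ± 0.313 CPM in GHMT cells at day 7, and at 13.1 ± 1.03 CPM in AGHMT and 3.76 ± 0.197 CPM in GHMT cells at day 2 (SD, n = 3 each). Dach1, a transcription cofactor, and Lrrc17, a leucine-rich repeat protein, took another course, with day 2 differences of 1.66 and 1.53 and lower levels in both groups at day 7. Dach1 averaged 2.13 CPM in AGHMT and 1.75 CPM in GHMT cells at day 7, and 13.1 CPM in AGHMT and 4.13 CPM in GHMT cells at day 2. Rpp25, a subunit of the RNA-processing enzymes RNase P and MRP, was the fifth of the largest early increases (log2 1.48 ± 0.10, edgeR, adjusted p = 4.92e-12 at day 2).

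Early decreases were led by Rgn, regucalcin, a calcium-binding protein, which had 2.58, 3.101 and 2.68 CPM in AGHMT cells at day 7, against 3.502, 3.29 and 3.21 CPM in GHMT cells, and 1.65, 2.17 and 2.38 CPM in AGHMT cells at day 2, against 8.46, 7.65 and 9.16 CPM in GHMT cells. AGHMT libraries were the lower ones at both days, by far more at day 2 (log2 −2.02) than at day 7, when the difference was not called (−0.26). Bmp8a, a bone morphogenetic protein (−1.99 at day 2), Fgf14, an intracellular fibroblast growth factor homolog that acts on sodium channels (−1.93), and Atp10a, a phospholipid flippase (−1.62), followed. Atp10a stood at a like level in AGHMT cells at both days and in GHMT cells at day 7. It averaged 15.05 CPM in AGHMT and 14.9 CPM in GHMT cells at day 7, and 13.3 CPM in AGHMT and 40.7 CPM in GHMT cells at day 2.

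**Figure D3:**
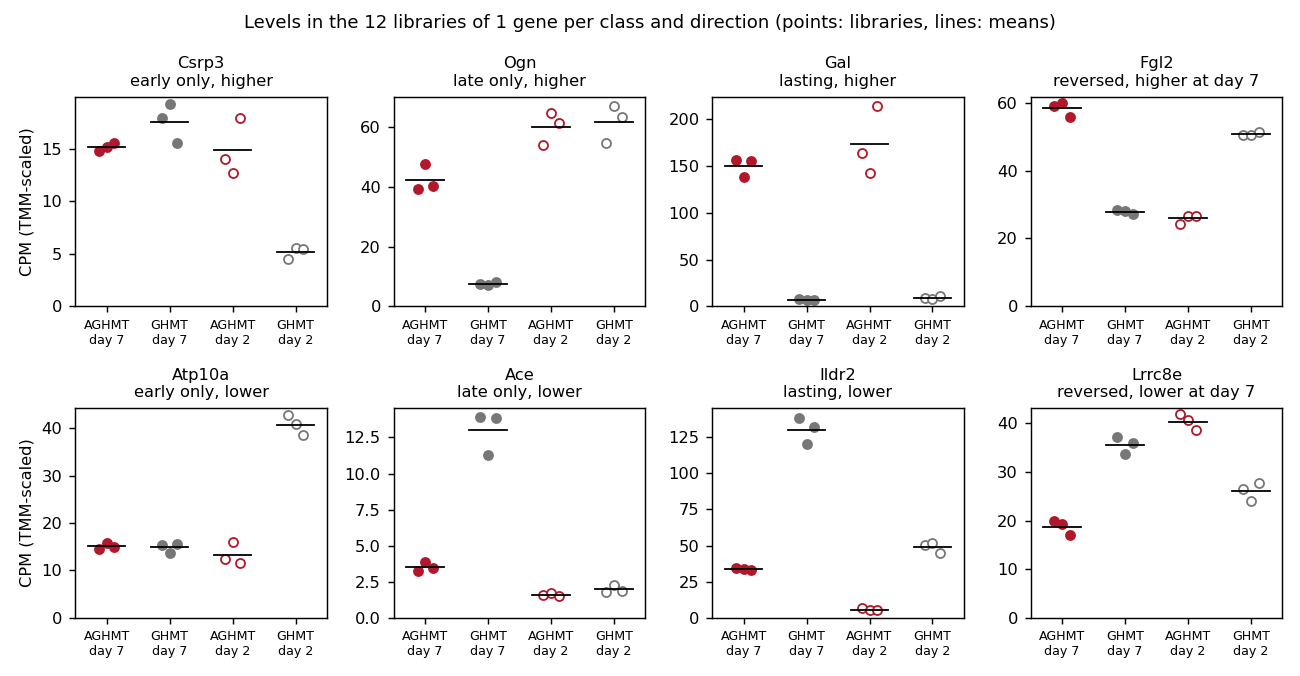
Levels (y axis, TMM-scaled CPM from 0) of 8 genes, 1 for each class and direction, in the 4 groups (x axis, filled for day 7 and open for day 2, red for AGHMT and gray for GHMT). Points are libraries and lines are means of 3. Fgl2 lies above GHMT at day 7 and below it at day 2 in all AGHMT libraries, and Lrrc8e does the reverse. The genes were chosen to have no overlap at each called day.

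Late increases included Prr32, a proline-rich protein, with 10.5, 10.5 and 11.7 CPM in AGHMT and 0.616, 0.625 and 0.492 CPM in GHMT cells at day 7, and no library of either group above 1 CPM at day 2 (day 7 log2 4.22 ± 0.15, edgeR, adjusted p = 2.59e-17). Tmem132b, a membrane protein (3.49 at day 7), and Iqsec3, an exchange factor for ARF GTPases (2.90), were also under 2 CPM in every library at day 2. Ogn, osteoglycin, a small leucine-rich proteoglycan of the matrix, was of another kind. Ogn (ENSMUSG00000021390, chromosome 13, 49608046-49624501) had 39.3, 47.4 and 40.3 CPM in AGHMT and 7.48, 7.26 and 8.004 CPM in GHMT cells at day 7, and 53.9, 64.6 and 61.2 CPM in AGHMT and 54.6, 67.1 and 63.2 CPM in GHMT cells at day 2. AGHMT and GHMT cells overlapped at day 2, and at day 7 the lower level was that of GHMT cells (day difference log2 2.52 ± 0.14, edgeR, adjusted p = 3.24e-12). Mock cells had 694 CPM of Ogn at day 7 and 220.2 CPM at day 2.

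The largest late decreases held 2 interferon-induced genes, Isg15 and Ddx60, which are taken up with their list below. Ace, angiotensin-converting enzyme, had 3.27, 3.88 and 3.45 CPM in AGHMT and 13.9, 11.3 and 13.9 CPM in GHMT cells at day 7, and 1.56, 1.71 and 1.52 CPM in AGHMT and 1.82, 2.25 and 1.87 CPM in GHMT cells at day 2. AGHMT libraries were the lower ones at both days, but the day 2 difference was not called (edgeR, adjusted p = 0.162). Cyp11a1, the enzyme that cleaves the cholesterol side chain in steroid synthesis, averaged 3.08 CPM in AGHMT and 11.2 CPM in GHMT cells at day 7 (log2 −1.87 ± 0.14, edgeR, adjusted p = 3.36e-11), and under 1 CPM in both at day 2. Ecel1, an endopeptidase of neurons, was likewise under 1 CPM at day 2 and stood at −2.00 (log2) at day 7. Its day difference was lost without AGHMT day 7 replicate 2 and without replicate 1 or 3 of either group at day 2 (edgeR, adjusted p up to 0.164, without AGHMT day 2 replicate 3).

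The 5 largest lasting increases were those of Gal, Th, Ntsr2, Avp and Mybpc1. Gal, the precursor of the neuropeptide galanin (ENSMUSG00000024907, chromosome 19, 3409915-3414544), had 156, 138 and 155 CPM in AGHMT and 7.65, 6.91 and 6.56 CPM in GHMT cells at day 7, and 164, 142 and 214 CPM in AGHMT and 8.49, 8.08 and 10.7 CPM in GHMT cells at day 2. Its difference was 4.41 ± 0.13 at day 7 and 4.26 ± 0.12 at day 2, a day difference of 0.15 ± 0.18 (edgeR, adjusted p = 0.604). Th, tyrosine hydroxylase, the rate-limiting enzyme of catecholamine synthesis, differed by 4.59 at day 7 and 4.51 at day 2, and Ntsr2, a neurotensin receptor, by 5.01 and 5.92. Avp, the vasopressin precursor, had 6.61, 5.75 and 7.23 CPM in AGHMT cells at day 7 and at most 0.112 CPM in any GHMT library of either day, so that its fitted difference rests on a few counts in GHMT cells. Mybpc1, slow myosin-binding protein C, grew further: it had 28.5, 31.4 and 32.7 CPM in AGHMT and 0.364, 0.517 and 0.361 CPM in GHMT cells at day 7, and 11.3, 11.2 and 10.8 CPM in AGHMT and 0.4296, 0.232 and 0.666 CPM in GHMT cells at day 2 (day difference log2 1.56 ± 0.31, edgeR, adjusted p = 6.17e-04).

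Lasting decreases were led by Ripply1, a transcriptional corepressor of somite formation, with 7.05, 8.095 and 6.66 CPM in AGHMT and 47.7, 54.8 and 41.00 CPM in GHMT cells at day 7, and 5.303, 4.67 and 7.18 CPM in AGHMT and 38.6, 42.9 and 44.9 CPM in GHMT cells at day 2. Its groups lay far apart at both days (log2 −2.72 and −2.87). Ildr2, an immunoglobulin-like membrane protein, was lower by less at day 7 (log2 −1.95) than at day 2 (−3.13). Igsf23, another member of the immunoglobulin superfamily (−1.97 and −2.43 at day 7 and day 2), and Slc6a18, a neutral amino acid transporter (−2.86 and −2.28), completed the 5 largest with Oas3. At day 2 Slc6a18 had 1, 0 and 1 counts in AGHMT cells, against 1, 6 and 3 counts in GHMT cells. Its day 2 call was lost with DESeq2 (adjusted p = 0.0667) and without 7 of the 12 libraries in turn (edgeR, adjusted p up to 0.265, without GHMT day 2 replicate 2).

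Reversed genes changed sides between the days. Crh, corticotropin-releasing hormone (ENSMUSG00000049796, chromosome 3, 19693401-19695396), had 11.3, 11.4 and 9.52 CPM in AGHMT and 4.62, 5.47 and 4.66 CPM in GHMT cells at day 7, and 1.04, 1.08 and 1.58 CPM in AGHMT and 3.54, 4.903 and 3.43 CPM in GHMT cells at day 2. As the choice of these genes required, AGHMT libraries lay above all GHMT libraries at day 7 and below all of them at day 2. No count of Crh was recorded in mock cells. Fgl2, a fibrinogen-like protein, had 59.1, 60.00 and 55.9 CPM in AGHMT and 28.4, 28.1 and 27.1 CPM in GHMT cells at day 7, and 24.4, 26.6 and 26.7 CPM in AGHMT and 50.6, 50.4 and 51.3 CPM in GHMT cells at day 2 (day difference log2 2.04 ± 0.11, edgeR, adjusted p = 1.47e-12). The levels of Fgl2 in AGHMT and GHMT cells were close to exchanged between the days. Wisp2, a matricellular protein of the CCN family (day 7 0.92, day 2 −0.97), and Aldh1a7, an aldehyde dehydrogenase (1.34 and −0.92), also reversed. Aldh1a7 is a near copy of Aldh1a1, so its reads may be split between them.

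In the other direction, Grin2c, an NMDA receptor subunit, had 2.99, 3.49 and 2.56 CPM in AGHMT and 4.12, 5.03 and 4.49 CPM in GHMT cells at day 7, and 25.2, 24.2 and 21.2 CPM in AGHMT and 7.105, 6.69 and 6.26 CPM in GHMT cells at day 2. Its day difference of −2.41 ± 0.16 was the lowest among genes of at least 5 CPM, leaving out gene models without a name and pseudogenes (edgeR, adjusted p = 4.33e-11). Lrrc8e, a subunit of volume-regulated anion channels, stood at −0.93 at day 7 and 0.63 at day 2. Peg10, an imprinted gene derived from a retrotransposon, was abundant, at 243 ± 13.2 CPM in AGHMT and 376 ± 54.9 CPM in GHMT cells at day 7, and 530.0 ± 61.99 CPM in AGHMT and 311 ± 32.4 CPM in GHMT cells at day 2 (SD, n = 3 each). Sh3tc1 (day 7 −0.74, day 2 0.61) and Nat8l, the enzyme of N-acetylaspartate synthesis (−0.59 and 0.66), were the others.

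By the same ranking, the largest positive day differences belonged to Prr32, Ryr1, Col19a1, Ncan and Iqsec3. Ryr1, the calcium release channel of skeletal muscle, had 32.4, 30.03 and 36.5 CPM in AGHMT and 2.02, 1.58 and 1.54 CPM in GHMT cells at day 7, and 1.71, 1.87 and 1.22 CPM in AGHMT and 1.26, 0.994 and 1.099 CPM in GHMT cells at day 2, when the groups overlapped (day difference log2 3.75 ± 0.24, edgeR, adjusted p = 2.72e-11). The small difference of Ryr1 at day 2, 0.51, was called, and lost without AGHMT day 2 replicate 1 or 2 or GHMT day 2 replicate 2 or 3 (edgeR, adjusted p up to 0.120). Ncan, a proteoglycan of nervous tissue, was higher at both days, by 5.17 and 1.87, while Col19a1, a fibril-associated collagen, reversed to 0.74 at day 7, against −2.58 at day 2. Besides Grin2c and Cyp11a1, the lowest day differences were those of Aldh3b2, Cldn23 and Oasl2. The day 2 increase of Aldh3b2, an aldehyde dehydrogenase, shrank to 0.72 at day 7, against 3.07 at day 2, and that of Cldn23, a claudin, to 1.79, against 3.95, at under 1 CPM in every AGHMT and GHMT library of day 7. The day difference of Cldn23 was lost without GHMT day 7 replicate 1 (edgeR, adjusted p = 0.0585).

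Gene groups were then read from 31 lists of textbook genes, chosen with earlier results of these data known. Among all genes tested, 25.0% were higher and 23.6% lower at day 7, and 25.7% and 27.0% at day 2. Day differences were called positive for 13.3% of them and negative for 9.05%. Counts near these shares are not read as results about a list. List counts given once are from all libraries, and some moved without AGHMT day 2 replicate 3. Stress genes lower at day 2 were then 14, against 9, and ribosome biogenesis genes lower at day 2 were 23, against 18. Negative day differences were then 11, against 7, in sterol and fatty acid synthesis, and 1, against 4, in the inflammatory list. The median of glycolysis genes at day 2 was then 0.26, against 0.37. Of the 33 parts of Akt and insulin signalling, 12 were higher and 9 lower at day 7, 10 were higher and 12 lower at day 2, and the day difference was called positive for 9 and negative for 4, with a median of 0.13. Igf1r, Irs1 and Irs2 were lower at both days. Igf1r, the receptor of insulin-like growth factors (ENSMUSG00000005533, chromosome 7, 67952827-68233668), had 87.8, 90.1 and 89.96 CPM in AGHMT and 195, 173 and 197 CPM in GHMT cells at day 7, and 62.8, 61.7 and 49.4 CPM in AGHMT and 196, 209 and 183 CPM in GHMT cells at day 2. AGHMT libraries lay below all GHMT libraries at both days, by less at day 7 (day difference log2 0.68 ± 0.09, edgeR, adjusted p = 4.93e-06). The adaptors Irs1 and Irs2, chosen after their values were seen, were lower, at −0.67 and −1.42 at day 7 and at −1.35 and −1.68 at day 2. Insr, the insulin receptor, also chosen so, was called at day 2 alone (−0.14 and −0.56).

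Pik3r1, the regulatory subunit of PI3 kinase, averaged 127 CPM in AGHMT and 51.9 CPM in GHMT cells at day 7, and 119.5 CPM in AGHMT and 68.9 CPM in GHMT cells at day 2 (day difference log2 0.50 ± 0.09, edgeR, adjusted p = 1.46e-04). Rptor, the defining subunit of mTORC1, was higher by less at day 7 (0.26) than at day 2 (0.92), and Grb10, an adaptor that dampens insulin receptor signalling, only at day 7 (0.44). Without AGHMT day 2 replicate 3, 7 positive and 4 negative day differences of this list were called, 13 genes were lower at day 7, and Insr was not early only. The median day difference of the list was then 0.04, and its median at day 2 was 0.03, against −0.06 with that library.

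The 27 FoxO targets, genes that FoxO factors are known to raise, did not move as a group, with 10 higher and 8 lower at day 7 and 11 higher and 11 lower at day 2. Sesn1, a stress-induced inhibitor of mTORC1 activity, was higher at both days, at 114 ± 1.602 CPM in AGHMT and 33.9 ± 0.518 CPM in GHMT cells at day 7, and 147 ± 6.93 CPM in AGHMT and 55.3 ± 0.917 CPM in GHMT cells at day 2 (SD, n = 3 each). Bnip3, a mitophagy receptor, was higher by 1.41 at day 7 and 0.51 at day 2. Bcl2l11, which encodes the death-promoting protein BIM, had 14.9, 13.8 and 14.7 CPM in AGHMT and 13.8, 13.7 and 13.8 CPM in GHMT cells at day 7, and 54.6, 58.7 and 48.6 CPM in AGHMT and 30.8, 28.1 and 28.8 CPM in GHMT cells at day 2, when it was called higher. Of 18 genes of the BCL2 family and its partners, 8 were lower and 1 higher at day 7, and 10 were lower and 1 higher at day 2. Among them Bcl2l2, a survival protein, was lower only at day 2 (−0.56), and Birc3, an inhibitor of apoptosis, at both days (−0.29 and −0.77).

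All 50 genes of oxidative phosphorylation tested were higher in AGHMT cells at day 7 and 49 of them at day 2, with medians of 0.55 at both days, and only 3 positive and 1 negative day differences were called. Cox7a1, a muscle form of a cytochrome c oxidase subunit, was higher by more at day 7 (2.95 at day 7, 2.10 at day 2), as was Uqcrc2 of complex III (0.70 and 0.46), while Cox8b, at a low level, was late only and Cox5a was higher by less at day 7 than at day 2 (0.43 and 0.84). The day difference of Cox5a was lost with the 12 AGHMT and GHMT libraries alone (edgeR, adjusted p = 0.0764) and without GHMT day 7 replicate 1 (0.0501). Without AGHMT day 2 replicate 3 the median at day 2 was 0.42 and 12 positive day differences were called, so whether this increase grew rests on that library. The genes carried by the mitochondrial genome had no counts in the table.

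Glycolysis genes were further above GHMT cells at day 7 than at day 2. Of its 24 genes, 20 were higher and 4 lower at day 7 (median 0.62), 15 were higher and 5 lower at day 2 (median 0.37), and 12 day differences were positive and 2 negative. Pdk1, the kinase that holds back pyruvate dehydrogenase (ENSMUSG00000006494, chromosome 2, 71873224-71903858), had 106, 110.0 and 109 CPM in AGHMT and 31.9, 29.9 and 28.8 CPM in GHMT cells at day 7, and 49.8, 52.1 and 51.9 CPM in AGHMT and 27.7, 27.8 and 26.95 CPM in GHMT cells at day 2. No groups overlapped, and the difference at day 7 was the larger (day difference log2 0.94 ± 0.06, edgeR, adjusted p = 3.34e-11). The 3 reversed genes of the list were Hk2, hexokinase 2, Pfkp, the platelet form of phosphofructokinase, and Slc16a3, a lactate exporter. Hk2 had 155, 162 and 165 CPM in AGHMT and 139.9, 127 and 139 CPM in GHMT cells at day 7, and 52.4, 55.6 and 52.99 CPM in AGHMT and 75.9, 73.9 and 77.8 CPM in GHMT cells at day 2. AGHMT libraries were above GHMT at day 7 and below at day 2, with no overlap. Pfkp stood at 0.15 at day 7 and −0.82 at day 2, and Slc16a3 at 0.75 and −0.53. With a per-library correction for length the day 7 call of Pfkp was lost (edgeR, adjusted p = 0.0641).

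Of 26 genes of fatty acid oxidation, 18 were higher and 3 lower at day 7 and 19 higher and 3 lower at day 2, with 7 positive and 4 negative day differences. Fabp3, the heart fatty acid binding protein, reversed to higher (0.43 and −0.24), Hadh was higher by more at day 2, Eci2 only then, and the coactivator Ppargc1b was higher only at day 7 (0.73). Of 29 genes of sterol and fatty acid synthesis, 15 were higher and 6 lower at day 7, 16 were higher and 8 lower at day 2, and 3 day differences were positive and 7 negative. Scd1, a stearoyl-CoA desaturase, had 735, 677 and 733 CPM in AGHMT and 753, 647 and 733 CPM in GHMT cells at day 7, and 1562, 1434 and 1403 CPM in AGHMT and 805, 753 and 796 CPM in GHMT cells at day 2, so that its groups overlapped at day 7 alone. Its relative Scd2 was higher at both days (0.66 and 1.14), and Insig1, a brake on sterol synthesis, was lower only at day 2 (−0.36).

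Targets of ATF4, the factor of the amino acid response, were lower in 19 and higher in 5 of 30 genes at day 7, and lower in 17 and higher in 7 at day 2. Slc7a5, an amino acid transporter, was higher only at day 2 (0.61), Pycr1 of proline synthesis was lower at both days, and Stc2 reversed to higher. Ribosome biogenesis genes were lower in 17 of 30 at day 7 and 18 at day 2, with 1 and 3 higher and 4 positive day differences. Gnl3, nucleostemin, stood at −0.50 at day 7 and −0.83 at day 2. Autophagy and lysosome genes were lower in 14 and higher in 6 of 30 at day 7, and lower in 9 and higher in 9 at day 2. Among them were Hexa, a lysosomal hexosaminidase, lower only at day 7 (−0.52) and Gpnmb lower at both days (−1.26 and −1.64).

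**Figure D4:**
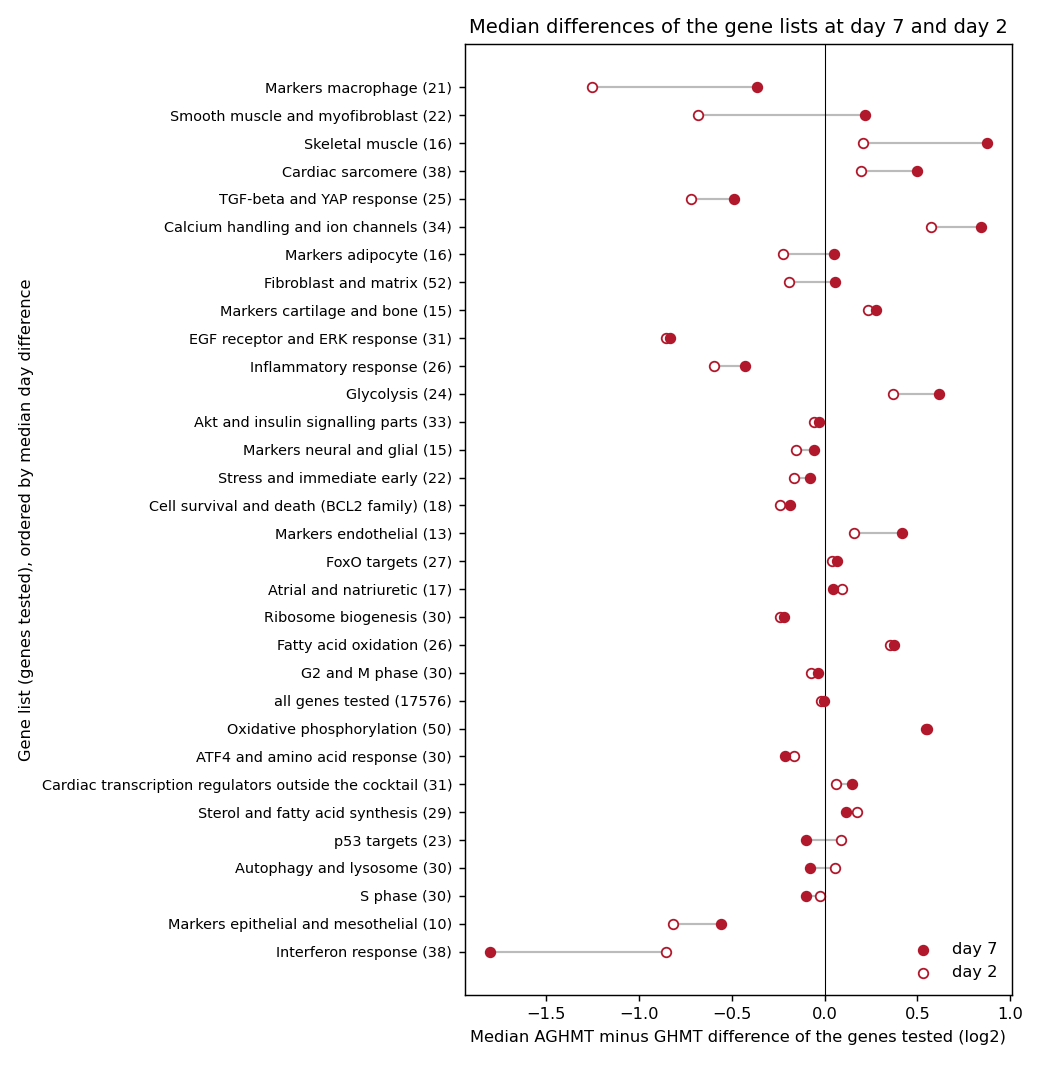
Median AGHMT minus GHMT difference (x axis, log2) of the genes tested in each of 31 lists and of all genes tested (y axis, number of genes in brackets), at day 7 (filled) and day 2 (open). Smooth muscle genes stand at 0.22 at day 7 and −0.68 at day 2, and interferon response genes at −1.80 at day 7 and −0.85 at day 2.

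Heart muscle genes were further above GHMT cells at day 7. Of 38 genes of the cardiac sarcomere, 25 were higher and 6 lower at day 7 (median 0.50), 17 were higher and 11 lower at day 2 (median 0.20), and 17 day differences were positive and 5 negative. Without AGHMT day 2 replicate 3 the median at day 2 was 0.07, and 21 day differences were positive and 5 negative. Myom1 and Myom2 encode M-band proteins and took different courses. Myom1 had 312, 316 and 292 CPM in AGHMT and 197, 181 and 179 CPM in GHMT cells at day 7, and 126, 126 and 113 CPM in AGHMT and 171, 173 and 149 CPM in GHMT cells at day 2, on opposite sides at the 2 days and with no overlap. Myom2 had 577, 556 and 541 CPM in AGHMT and 949.6, 939 and 913 CPM in GHMT cells at day 7, and 50.7, 47.1 and 48.9 CPM in AGHMT and 253, 264 and 253 CPM in GHMT cells at day 2, lower throughout but by less at day 7 (day difference log2 1.65 ± 0.06, edgeR, adjusted p = 7.02e-16). Cryab, Nexn and Myl7 were the other genes of this list that reversed to higher, and Tnni1 was the 1 that reversed to lower. Pdlim5, a Z-disc protein, was lower only at day 2 (−0.87). Myh6, the alpha myosin heavy chain, chosen after its values were seen, was higher at both days (2.38 and 2.83), although reads of the similar Myh7 make its level uncertain, and Tnnt2, cardiac troponin T, was called at neither day (0.09 and 0.15).

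Calcium handling and ion channel genes were higher in 24 and lower in 3 of 34 at day 7 (median 0.84), and higher in 17 and lower in 4 at day 2 (median 0.57), with 13 positive and 3 negative day differences. Without AGHMT day 2 replicate 3, 21 were higher and 5 lower at day 2, with 13 positive and 4 negative day differences. The median day difference was then 0.18, against 0.33 with that library. Kcnj3, a subunit of the acetylcholine-gated potassium channel, had 30.3, 28.9 and 33.1 CPM in AGHMT and 2.16, 2.42 and 2.07 CPM in GHMT cells at day 7, and 24.7, 27.6 and 24.1 CPM in AGHMT and 4.59, 4.41 and 4.83 CPM in GHMT cells at day 2. All AGHMT libraries were higher, and the gap widened (day difference log2 1.32 ± 0.16, edgeR, adjusted p = 5.99e-07). Cacnb2, a subunit of the L-type calcium channel, was late only (0.95), Jph2, which ties the surface membrane to calcium stores, reversed (0.10 and −0.50), and Popdc2, of the Popeye family, was lower by less at day 7 (−0.57, against −1.67 at day 2). The day 7 call of Jph2 was lost without AGHMT day 7 replicate 1 or 2, GHMT day 7 replicate 3 or GHMT day 2 replicate 1 (edgeR, adjusted p up to 0.186).

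Nppa, which encodes atrial natriuretic peptide (ENSMUSG00000041616, chromosome 4, 148000722-148002079), had 130.3, 129 and 113 CPM in AGHMT and 437, 503 and 442 CPM in GHMT cells at day 7, and 13.6, 11.7 and 14.97 CPM in AGHMT and 23.7, 22.3 and 27.5 CPM in GHMT cells at day 2. It was lower in all AGHMT libraries at both days, by more at day 7 (day difference log2 −1.03 ± 0.13, edgeR, adjusted p = 2.82e-06). In the 17 genes of the atrial and natriuretic list, 7 were higher and 7 lower at day 7, and 4 were higher and 6 lower at day 2. Pam, an enzyme that amidates peptides, was higher only at day 7 (0.57). Of 31 cardiac transcription regulators outside the cocktail, 14 were higher and 7 lower at day 7, and 12 were higher and 9 lower at day 2. Tbx2 was higher by 0.20 at day 7 and by 1.21 at day 2, Ankrd1, a stretch-responsive nuclear protein, was lower at both days (−0.67 and −1.75), and Tbx18 and Srf reversed to higher.

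Skeletal muscle genes were tested for 16 of 26, of which 9 were higher and 1 lower at day 7 (median 0.88), and 5 were higher and 1 lower at day 2 (median 0.21). Myl1, the fast skeletal light chain, had 701, 772 and 748 CPM in AGHMT and 19.6, 24.3 and 25.4 CPM in GHMT cells at day 7, and 72.1, 69.1 and 90.8 CPM in AGHMT and 5.12, 5.399 and 4.997 CPM in GHMT cells at day 2. AGHMT libraries were the higher ones at both days. Tnnt3, fast troponin T, was late only, at 89.1, 90.5 and 87.7 CPM in AGHMT and 26.5, 25.7 and 23.7 CPM in GHMT cells at day 7, and 21.1, 21.8 and 27.5 CPM in AGHMT and 24.1, 18.6 and 19.2 CPM in GHMT cells at day 2 (day difference log2 1.63 ± 0.13, edgeR, adjusted p = 5.23e-10). Its groups overlapped at day 2 alone. Myh1, a fast myosin heavy chain whose reads may be shared with neighboring copies, reversed to higher (0.83 and −1.36).

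The median difference of smooth muscle and myofibroblast genes changed sign between the days. At day 7, 12 of 22 were higher and 7 lower (median 0.22), and at day 2, 4 were higher and 17 lower (median −0.68). The day difference was positive and called for 19 and negative for none by edgeR, by DESeq2 or at an unadjusted p under 0.05 (median 0.71), against 13.3% positive among all genes tested, and without AGHMT day 2 replicate 3 for 18 and 1. The 7 genes that reversed to higher were Lmod1, Myh11, Actg2, Acta2, Myl9, Cdh11 and Srf. Lmod1, leiomodin of smooth muscle thin filaments, had 113, 116 and 107 CPM in AGHMT and 89.9, 84.2 and 90.96 CPM in GHMT cells at day 7, and 45.7, 43.8 and 47.7 CPM in AGHMT and 98.2, 98.9 and 92.9 CPM in GHMT cells at day 2. Myh11, the smooth muscle myosin heavy chain (ENSMUSG00000018830, chromosome 16, 14194535-14291372), had 439, 459 and 400.4 CPM in AGHMT and 342, 299 and 311 CPM in GHMT cells at day 7, and 87.02, 88.02 and 71.2 CPM in AGHMT and 184, 184 and 165 CPM in GHMT cells at day 2. In both genes all AGHMT libraries lay above GHMT at day 7 and below it at day 2 (day difference of Myh11 log2 1.56 ± 0.10, edgeR, adjusted p = 4.33e-11).

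Actg2, the enteric smooth muscle actin, rested on less at day 7, where its libraries overlapped and the difference was 0.16 (edgeR, adjusted p = 0.0324, and up to 0.154 without AGHMT day 7 replicate 1 or 2 or GHMT day 7 replicate 1 or 3), against −1.10 at day 2. Mylk, the kinase of the myosin light chain, was late only, at 294 ± 5.93 CPM in AGHMT and 115 ± 6.79 CPM in GHMT cells at day 7, and 172 ± 11.96 CPM in AGHMT and 185 ± 12.02 CPM in GHMT cells at day 2 (SD, n = 3 each). Tagln, chosen after its values were seen, remained lower at both days (−0.47 and −1.58). In the GMT and mock libraries, which the rule does not use, GMT cells had 6 of these genes higher and 16 lower than mock cells at day 7 and 5 higher and 15 lower at day 2. The share of genes called in that comparison was 37.1% higher and 36.0% lower at day 7, and 33.9% higher and 33.1% lower at day 2.

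Srf encodes serum response factor, which is known to bind the CArG box in promoters of contractile genes, its own included. The 250 bases before the start sites of Srf and of Myl9, the smooth muscle regulatory light chain, are shown because both genes reversed to higher and both stretches hold a CArG box (capitals), searched on both strands in RefSeq promoters of GRCm38.p6. Srf lies at chr17:46556163-46556412, minus strand, with matches that start 82 and 62 bases before the start site, and Myl9 at chr2:156775214-156775463, plus strand, with a match that starts 161 bases before it.
Srf: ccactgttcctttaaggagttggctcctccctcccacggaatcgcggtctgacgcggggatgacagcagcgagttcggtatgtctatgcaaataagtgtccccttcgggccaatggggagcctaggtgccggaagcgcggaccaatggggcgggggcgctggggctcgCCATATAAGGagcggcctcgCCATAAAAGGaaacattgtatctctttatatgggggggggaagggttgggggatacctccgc
Myl9: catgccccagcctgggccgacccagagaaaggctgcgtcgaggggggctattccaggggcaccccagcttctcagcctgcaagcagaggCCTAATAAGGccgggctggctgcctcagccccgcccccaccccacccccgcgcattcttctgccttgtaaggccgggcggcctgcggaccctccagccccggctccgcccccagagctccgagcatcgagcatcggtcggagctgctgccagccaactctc
Srf had 101, 96.2 and 102 CPM in AGHMT and 80.6, 81.2 and 81.8 CPM in GHMT cells at day 7, and 66.6, 63.6 and 67.7 CPM in AGHMT and 83.01, 84.7 and 84.9 CPM in GHMT cells at day 2. Myl9, chosen after its values were seen, had 1066, 1068 and 971 CPM in AGHMT and 778, 794 and 742 CPM in GHMT cells at day 7, and 426, 419 and 505 CPM in AGHMT and 727, 760.3 and 757 CPM in GHMT cells at day 2. Neither gene's groups overlapped at either day. A CArG box stood within the window of 250 bases before to 50 bases after the start in 3 of the 15 list members with a promoter in the table (Srf, Myl9 and Vcl), in 11 of 188 genes that reversed to higher (5.85%), in 1 of 91 that reversed to lower (1.10%) and in 196 of 12014 tested genes with a promoter (1.63%). Vcl was lasting and not reversed. Srf and Myl9 are counted both in the list and among the genes that reversed to higher, so these shares are not separate. Only exact matches were searched: CC, a run of A or T letters alone, and GG, as in the capitals. Boxes with a mismatch or outside the window were not searched, so a gene without a match may still have one. A match describes the letters and shows no binding.

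**Figure D5:**
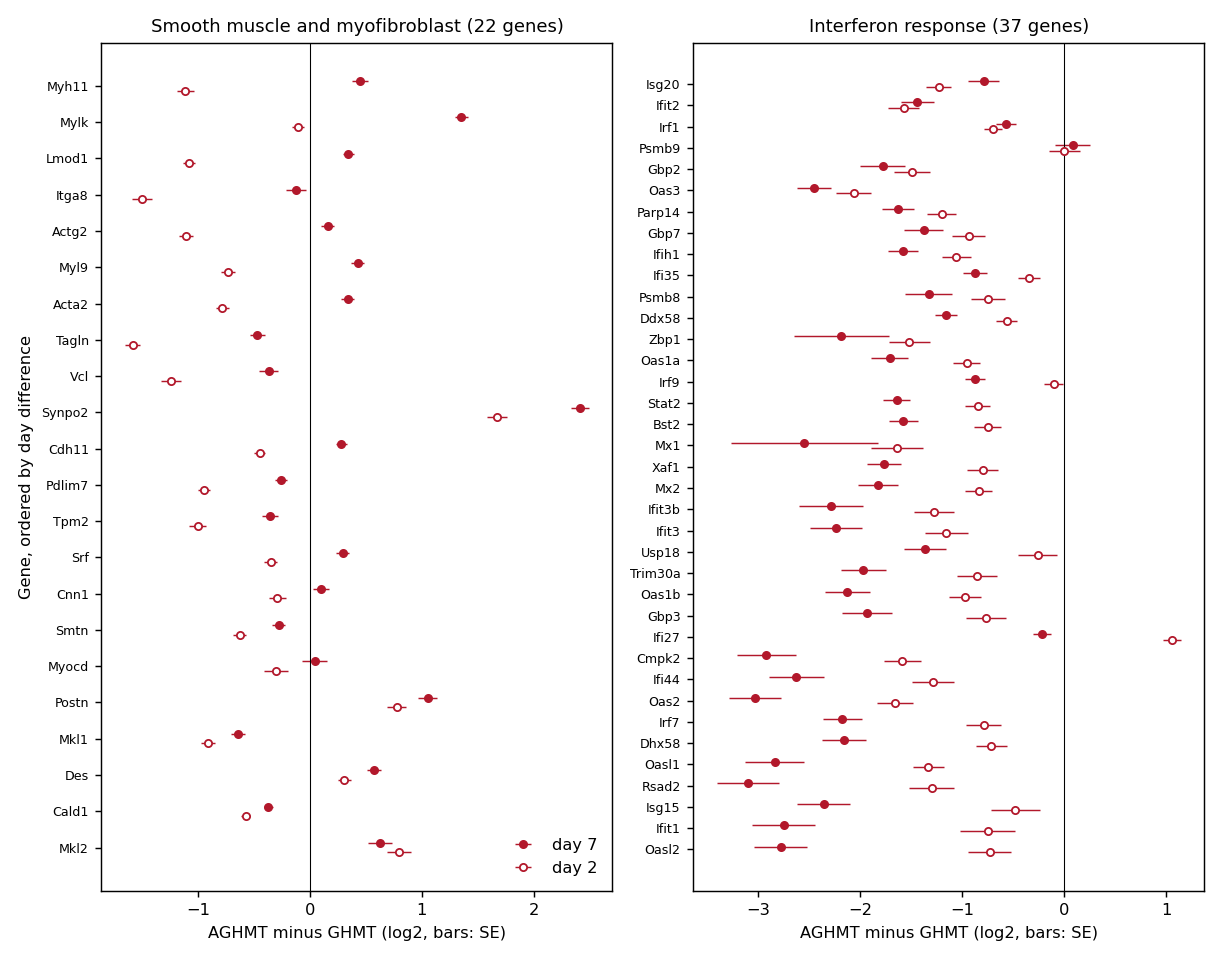
AGHMT minus GHMT difference (x axis, log2 ± SE) of the 22 tested members of the smooth muscle and myofibroblast list (left) and of 37 of the 38 tested members of the interferon response list (right), at day 7 (filled) and day 2 (open), ordered on the y axis by day difference. On the left 19 of 22 genes have a called positive day difference, and 25 of all 38 interferon response genes have a called negative one.

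Fibroblast and matrix genes had mostly positive called day differences. At day 7, 19 of 52 were higher and 16 lower, and at day 2, 13 were higher and 26 lower, with 24 positive and 2 negative day differences (median 0.23). These were 22 and 6 without AGHMT day 2 replicate 3. Lox, the collagen crosslinking enzyme, was early only, at 648, 647 and 602 CPM in AGHMT and 627, 605 and 674 CPM in GHMT cells at day 7, and 240.0, 259 and 229 CPM in AGHMT and 484, 514 and 499 CPM in GHMT cells at day 2. AGHMT and GHMT libraries of Lox overlapped at day 7 alone. Vim, vimentin, was lower by less at day 7 (log2 −0.39) than at day 2 (−1.48), and Aspn, asporin, reversed to higher (0.36 and −0.99). Mock cells had 5089.7 CPM of Lox at day 7 and 2255 CPM at day 2, above both cocktails.

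Genes that respond to TGF-beta and to YAP were lower at both days, by less at day 7. None of the 25 was higher at either day by edgeR, also none by DESeq2 or at an unadjusted p under 0.05, 22 were lower at each, and the median was −0.49 at day 7 and −0.72 at day 2, with 14 positive and 2 negative day differences. Cyr61, a matricellular YAP target (ENSMUSG00000028195, chromosome 3, 145646976-145649981), had 370.4, 366 and 353 CPM in AGHMT and 619.7, 653 and 634 CPM in GHMT cells at day 7, and 95.1, 92.03 and 109 CPM in AGHMT and 413, 427 and 423 CPM in GHMT cells at day 2. AGHMT libraries lay below all GHMT libraries at both days, with a gap of −0.81 at day 7 and −2.09 at day 2 (day difference log2 1.28 ± 0.08, edgeR, adjusted p = 3.14e-11). Amotl2, a YAP regulator (−0.88 and −1.91), and Tgfb3, a ligand (−0.22 and −1.69), also had a smaller gap at day 7.

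Most genes of the EGF receptor and ERK response were lower at both days, 23 of 31 genes at day 7 and 25 at day 2, with 3 and 2 higher, medians of −0.83 and −0.86, and 11 positive and 3 negative day differences. Ereg, epiregulin, a ligand of the receptor, had 36.4, 40.2 and 35.8 CPM in AGHMT and 71.3, 75.1 and 78.8 CPM in GHMT cells at day 7, and 6.17, 5.13 and 5.85 CPM in AGHMT and 25.3, 26.6 and 28.1 CPM in GHMT cells at day 2. AGHMT libraries were the lower ones at both days. Ccnd1, cyclin D1, was lower (log2 −0.63 and −1.33 at day 7 and day 2), as was Spry1, a feedback inhibitor (−0.27 and −1.27), while Dusp7, a phosphatase of ERK, reversed to higher (0.41 and −0.25). Of 22 stress and immediate early genes, 10 were lower and 3 higher at day 7, and 9 lower and 4 higher at day 2, and Fos and Fosb were higher at day 2 alone (0.58 and 0.60).

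No call in any of the 3 tests was made for 15 of 30 S phase genes and 21 of 30 G2 and M phase genes. Among all 17576 genes tested, 5984 had none. Of 30 S phase genes 9 were lower and 1 higher at day 7, and 6 lower and 3 higher at day 2, and of 30 G2 and M phase genes 3 were lower and 2 higher at day 7, and 6 lower and 2 higher at day 2. Tpx2, a spindle assembly factor, had the largest difference of both lists at either day, at 56.3, 50.04 and 56.5 CPM in AGHMT and 24.9, 22.9 and 26.01 CPM in GHMT cells at day 7, and 69.9, 68.7 and 69.8 CPM in AGHMT and 39.4, 37.2 and 38.7 CPM in GHMT cells at day 2. Mcm4 of the replicative helicase was lower only at day 7 (−0.27), and Ccne1, cyclin E1, was higher only at day 2 (0.54). Among 23 p53 targets 9 were higher and 8 lower at day 7, and 12 higher and 5 lower at day 2. Xpc, a DNA damage sensor (−0.11 and 0.67), and Gadd45a (−0.41 and 0.34) reversed to lower, and Fas, a death receptor, reversed to higher (0.35 and −0.20). The small day 7 difference of Xpc was lost without any 1 AGHMT library of day 7 and without GHMT day 7 replicate 2 or 3 (edgeR, adjusted p up to 0.0990). The day 2 difference of Fas was lost without AGHMT day 2 replicate 1 or 2 or GHMT day 2 replicate 3 (edgeR, adjusted p up to 0.0679).

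Interferon response genes were lower in AGHMT cells, and far more so at day 7. At day 7, 37 of 38 were lower and none higher by edgeR, by DESeq2 or at an unadjusted p under 0.05 (median −1.80), at day 2, 32 were lower and 1 higher (median −0.85), and the day difference was negative for 25 (median −0.98), against 9.05% of all genes tested. In this list 32 genes were lasting, 4 late only (among them Isg15, Irf9 and Usp18) and 1 reversed. Without AGHMT day 2 replicate 3, 34 of the 38 were lasting, 2 late only and 1 reversed. Of the day differences 27 were then negative and 1 positive. Irf7, the factor that amplifies the interferon response (ENSMUSG00000025498, chromosome 7, 141262706-141266481), had 32.7, 28.95 and 21.7 CPM in AGHMT and 118, 140.1 and 117 CPM in GHMT cells at day 7, and 236, 297 and 301 CPM in AGHMT and 453, 439 and 551 CPM in GHMT cells at day 2. AGHMT libraries were below all GHMT libraries at both days (log2 −2.17 and −0.79). Irf9, a DNA-binding factor of the interferon response, was late only (log2 −0.88 ± 0.10, edgeR, adjusted p = 5.44e-08 at day 7).

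Isg15, a ubiquitin-like protein, had 58.96, 48.02 and 31.1 CPM in AGHMT and 254, 246 and 206 CPM in GHMT cells at day 7, and 362, 434 and 595 CPM in AGHMT and 636, 582 and 722 CPM in GHMT cells at day 2, where the groups overlapped. The overlap came from AGHMT day 2 replicate 3 alone. Oas3, an activator of RNase L, had 16.4, 12.7 and 10.9 CPM in AGHMT and 76.4, 71.2 and 71.02 CPM in GHMT cells at day 7, and 12.5, 15.4 and 13.2 CPM in AGHMT and 59.2, 52.7 and 59.5 CPM in GHMT cells at day 2, a lasting difference of like size. Oasl2 and Ddx60, an RNA helicase outside the list, stood at −2.78 and −1.96 at day 7 and at −0.73 and −0.36 at day 2, the last of which was not called. Ifi27 was the exception, at −0.22 at day 7 and 1.05 at day 2. Its day 7 call was lost without AGHMT day 7 replicate 2 or 3 or GHMT day 7 replicate 2 (edgeR, adjusted p up to 0.224). Families with similar copies, such as Oas, Ifit and Gbp genes, may share reads.

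The 250 bases before the start sites of Isg15 and Oas3 are shown because they hold the interferon-stimulated response element that the complex of IRF9 is known to bind. The motif searched was GAAANNGAAA on both strands, in capitals, in RefSeq promoters of GRCm38.p6. Isg15 lies at chr4:156200819-156201068, minus strand, with 3 overlapping matches that start 78 to 66 bases before the start site, and Oas3 at chr5:120777660-120777909, minus strand, with 1 match that starts 75 bases before it.
Isg15: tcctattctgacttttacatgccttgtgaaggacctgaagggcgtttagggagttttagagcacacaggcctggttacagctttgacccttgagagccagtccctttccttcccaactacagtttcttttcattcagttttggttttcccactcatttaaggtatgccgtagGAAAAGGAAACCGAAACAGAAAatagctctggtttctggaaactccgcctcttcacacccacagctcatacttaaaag
Oas3: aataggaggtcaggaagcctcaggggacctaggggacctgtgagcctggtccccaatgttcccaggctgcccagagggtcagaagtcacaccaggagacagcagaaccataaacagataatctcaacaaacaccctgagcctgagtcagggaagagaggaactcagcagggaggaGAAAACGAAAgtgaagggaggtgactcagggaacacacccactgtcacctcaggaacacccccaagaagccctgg
The motif stood within the window of 250 bases before to 50 bases after the start in 15 of the 28 interferon genes with a promoter in the table (53.6%), in 439 of 12014 tested genes with a promoter (3.65%) and in 1079 of all 27025 (3.99%).

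The interferon genes also differed between times without any cocktail. In mock cells 37 of the 38 were lower at day 7 than at day 2 and 1 was higher (median −2.97), against 25.8% of all genes lower and 29.7% higher. The summed level of the list was 745 to 948 CPM in AGHMT cells and 2357 to 2595 CPM in GHMT cells at day 7, and 3489 to 4484 CPM in AGHMT cells and 6211 to 7353 CPM in GHMT cells at day 2. In mock cells it was 632 to 1146 CPM at day 7 and 4292 to 5990 CPM at day 2. AGHMT cells at day 7 thus lay within the range of mock cells, and GHMT cells above it.

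Of 26 inflammatory genes tested, 13 were lower and 2 higher at day 7, and 13 lower and 1 higher at day 2, with 4 day differences in each direction. Ccl2, a chemokine for monocytes, had 82.8, 69.95 and 74.4 CPM in AGHMT and 94.8, 108 and 106 CPM in GHMT cells at day 7, and 25.2, 27.97 and 33.8 CPM in AGHMT and 59.8, 49.8 and 71.5 CPM in GHMT cells at day 2. AGHMT libraries were the lower ones at both days, as for Csf1, the macrophage growth factor (log2 −0.53 and −0.94). Nfkbia, an inhibitor of NF-kappa B, reversed to higher (0.21 and −0.21). Its day 7 call was lost without GHMT day 7 replicate 3 (edgeR, adjusted p = 0.0583), and its day 2 call without AGHMT day 2 replicate 1 or 2 or GHMT day 2 replicate 3 (up to 0.0745). Ptges, a prostaglandin E synthase, was lower only at day 7 (−0.39).

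Macrophage markers were lower in AGHMT cells mainly at day 2. Of 21 tested, 5 were lower at day 7 (median −0.36) and 19 at day 2 (median −1.25), none was higher at either day by edgeR, by DESeq2 or at an unadjusted p under 0.05, and 4 day differences were positive (8 by DESeq2 and 3 without AGHMT day 2 replicate 3). Their summed level was 50.4 to 72.7 CPM in AGHMT and 73.5 to 78.9 CPM in GHMT cells at day 7, and 19.0 to 23.8 CPM in AGHMT and 44.0 to 52.0 CPM in GHMT cells at day 2, with Lyz1 at or near 0. In mock cells it was 460.2 to 673 CPM at day 7 and 70.4 to 70.8 CPM at day 2. Csf1r, the receptor of Csf1, had 15.01, 12.8 and 13.5 CPM in AGHMT and 17.99, 19.7 and 18.7 CPM in GHMT cells at day 7, and 3.71, 3.45 and 3.16 CPM in AGHMT and 10.1, 8.78 and 10.6 CPM in GHMT cells at day 2. In such bulk samples fewer cells of a type and less RNA per cell cannot be told apart. The part of these markers in the inflammatory and interferon differences was not tested. The median day difference of the macrophage markers was 0.85, and that of the interferon genes −0.98.

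Markers of other cell types are set against the 25.0% of all genes that were higher and 23.6% that were lower at day 7, and the 25.7% and 27.0% at day 2. Counts as small as these lists hold are not read as a result about those cells. Endothelial markers were higher in 3 and lower in 3 of 13 at day 7 and in 3 and 4 at day 2, with Cldn5 near 0. Epithelial and mesothelial markers were higher in 2 and lower in 5 of 10 at day 7 and in 1 and 3 at day 2, with Epcam near 0. Msln, mesothelin, was lower at both days, at 122 ± 7.71 CPM in AGHMT and 571 ± 26.2 CPM in GHMT cells at day 7, and 8.31 ± 0.9705 CPM in AGHMT and 31.2 ± 1.24 CPM in GHMT cells at day 2 (SD, n = 3 each). Neural and glial markers were higher in 4 and lower in 5 of 15 at day 7 and in 2 and 5 at day 2. Cartilage and bone markers were higher in 4 and lower in 4 of 15 at day 7 and in 6 and 2 at day 2, with Sox9, a cartilage factor, reversed to lower (−1.10 and 0.33). The day 2 call of Sox9 was lost without AGHMT day 2 replicate 2 (edgeR, adjusted p = 0.0558). Adipocyte markers were higher in 4 and lower in 2 of 16 at day 7 and in 3 and 5 at day 2, with Pparg lower only at day 2 (−0.58).

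The classes were then looked up in the 12 libraries that the rule does not use. Of the 242 genes that reversed to higher, GMT cells had 52.1% higher and 39.7% lower than mock cells at day 7, against 37.1% and 36.0% of all genes tested, and 58.3% higher and 28.5% lower at day 2, against 33.9% and 33.1%. In mock cells 48.3% of them were higher and 26.9% lower at day 7 than at day 2, against 29.7% and 25.8% of all genes. Their median level was 44.6 CPM, against 14.0 CPM for all genes tested, and the part of the level in these shares was not tested. Of the 446 late higher genes, 43.0% were higher and 40.4% lower in GMT than in mock cells at day 7, and 50.4% were higher and 27.4% lower at day 2. In mock cells 44.8% of them were higher and 18.4% lower at day 7 than at day 2. Of the lasting lower genes, 28.3% were higher and 41.6% lower in mock cells at day 7 than at day 2, and of the lasting higher genes 40.4% were higher and 18.7% lower.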

How the data were processed

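Total RNA was sequenced from mouse embryonic fibroblasts, with 24 libraries in 8 groups of 3, of which the 12 AGHMT and GHMT libraries enter the compared differences. The authors deposited raw counts per gene, made with Trim Galore 0.4.1, HISAT2 2.0.1 and featureCounts 1.4.6 on GRCm38, and used DESeq2 1.6.3, per the submitters' processing notes. The annotation release, the strand setting and the handling of reads shared between genes are not stated in those notes or the labels. The authors also deposited a log2 table, which differed from log2 values computed from the counts by at most 0.00603 and was used as a check alone. Total counts ran from 29345957 to 37495178, of which at least 99.9% were in tested genes, and all 37 mitochondrial genes had a count of 0.

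In edgeR 4.0.16 (R 4.3.3, with limma 3.58.1), genes passing filterByExpr by group (17576) were normalised by TMM and fitted with 8 group means over the 24 libraries, which leaves 16 residual degrees of freedom. The quasi-likelihood F-test, 2-sided, gave the AGHMT minus GHMT difference at day 7, at day 2 and the difference between them, each with Benjamini-Hochberg adjustment over all tested genes and a threshold of 0.05. The common biological coefficient of variation was 5.55%. On simulated data for the day difference (16986 genes), the fit recovered 26% of 50 genes changed 1.2-fold, 98% at 1.5-fold and 100% at 2-fold. It called 9 of 16786 unchanged genes. Recovery and false calls were not tested with deviations that follow gene length, which some libraries had, or separately for genes at low level. They therefore describe the simulated counts alone. Exon lengths and positions came from an M21 annotation that matched 47601 of 47967 genes.

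Same-numbered AGHMT and GHMT libraries of day 2 deviated together (correlations of 0.43, 0.33 and 0.71 for replicates 1 to 3), and those of day 7 did not all (−0.09, 0.12 and 0.30). Between days, same-numbered GHMT day 7 and AGHMT day 2 libraries had correlations of like size and either sign (0.46, −0.65 and −0.55). The correlations therefore do not show that the numbers pair libraries, and a block within day 2 was fitted as an alternative alone. With the replicate number as a replicate block within day 2 the day difference was called for 2789 genes in the positive and 2003 in the negative direction. No pair of replicates differed by sampling noise alone, since chi-square over its degrees of freedom was at least 1.54.

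The named genes are the factors, Akt2, the 5 largest of each class and direction and the 5 highest and lowest day differences, among genes with a group mean of at least 5 CPM, and up to 4 members of each of 31 lists by adjusted p of the day difference. The 5 largest of each class and direction also had to show no overlap between AGHMT and GHMT libraries at each called day. Some genes that the rule names are not reported here. Genes outside this rule are said to be chosen after their values were seen, or are named as members of a class. The members and lists were chosen with earlier results of these data known. Alternatives were DESeq2 1.42.0, another scaling, no filter on low counts, fits of the 12 libraries, blocks, a length correction and leaving out libraries.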

Additional observations from a re-analysis of the deposited data

Results flagged for a closer look

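A difference that changes between the days was the reason for each entry here, by the test of the day difference itself together with opposite called directions at day 7 and day 2 where single genes are named. Over all genes the day difference was called for 2333 genes in the positive and 1590 in the negative direction (edgeR).

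Among genes that reversed to higher in AGHMT cells at day 7, the day difference (log2) was 3.33 for Col19a1, 2.79 for Crh, 2.27 for Aldh1a7, 2.19 for Myh1, 2.04 for Fgl2 and 1.89 for Wisp2. It was 1.56 for Myh11, 1.42 for Lmod1, 1.26 for Actg2, 0.65 for Srf and 1.35 for Aspn among smooth muscle and fibroblast genes. Heart muscle genes gave 1.15 for Myom1, 0.60 for Jph2, 0.67 for Fabp3, 0.62 for Tbx18 and 0.40 for the cocktail factor Hand2. Glucose metabolism gave 1.28 for Slc16a3, 0.97 for Pfkp and 0.75 for Hk2. The others were 0.67 for Stc2, 0.66 for Dusp7, 0.54 for Fas, 0.48 for Cenpa and 0.42 for Nfkbia.

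Among genes that reversed to lower, the day difference was −2.41 for Grin2c, −1.56 for Lrrc8e, −1.43 for Sox9, −1.40 for Peg10, −1.35 for Sh3tc1, −1.275 for Ifi27 and −1.26 for Nat8l. It was −0.78 for Xpc, −0.75 for Gadd45a, −0.42 for Runx2 and −0.34 for Rfc5. What lies behind these reversals was not tested.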

How the results depend on the processing

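The 14 counts (higher and lower at day 7, at day 2 and for the day difference, and in each of the 4 classes) stayed within 1.5 times their value in all 20 settings, 3 of which were chosen after seeing the data (a length correction, a replicate block within day 2 and leaving out the 3 libraries whose levels followed gene length). Leaving out 1 library at a time, the day difference was called for 1990 to 2650 genes in the positive and 1289 to 1771 in the negative direction, and the largest ratio to the reported count was 1.32, for early higher genes without GHMT day 2 replicate 2 (357, against 472). With the replicate number as a replicate block over both days the day difference was called for 2320 and 1549 genes, and with the 12 AGHMT and GHMT libraries alone for 1794 and 1262. Among named genes the block over both days ended the call of the day difference for Akt2, Igsf23 and Wt1 (edgeR, adjusted p = 0.0501, 0.0534 and 0.0602), and the block within day 2 for Wt1 (0.0501).

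Of 415 called differences of named genes, 1 to 16 lost their call in a setting and none reversed. Wt1, Tek, Fcer1g, Igsf23, Akt2, Mef2c, Nop58, Adgre1, Msln and Ecel1 lost the day difference without several single libraries, and Slc6a18 its day 2 difference. Of the reversals, that of Rfc5 lost both its day 7 and its day 2 call with DESeq2 (adjusted p = 0.0990 and 0.103), and that of Runx2 its day 7 call (0.0554). Rfc5 also lost its day 7 call without replicate 1 or 2 of either group at day 7 (edgeR, adjusted p up to 0.198). Its day 2 call was lost without AGHMT day 2 replicate 2 or 3 or any GHMT day 2 library (up to 0.164). Runx2 lost its day 7 call without AGHMT day 7 replicate 1 or 2 or GHMT day 7 replicate 3 (up to 0.174). The day 2 call of Runx2 was lost without AGHMT day 2 replicate 1 or GHMT day 2 replicate 3 (up to 0.101). The cause was not tested. With 3 libraries a group, day differences under 1.5-fold are often missed, so a gene in no class is not shown to be unaffected by time, and levels under 1 CPM rest on few counts.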
